A study of Drosophila melanogaster with 2 samples.

Results

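The gap and pair-rule genes that pattern the early Drosophila embryo were followed into differentiated nuclei, with 10 members: the gap genes hb, Kr, hkb and tll and the pair-rule genes eve, ftz, run, h, odd and opa. They were taken by name from a table of 17039 genes, and all 10 of these were in it. The nuclei came from Drosophila melanogaster embryos aged 0 to 24 h, with no genotype, treatment or second condition in the labels. The assay, scAIR, cuts and rejoins chromatin in fixed nuclei and then barcodes them in droplets, to read transcripts, open chromatin and contacts from the same nuclei. The data are 1 RNA library with 318 nuclei and 2233526 unique molecular identifiers (UMIs, counted transcripts). With 1 library there is no replicate and no test between groups, and every interval given here is a 95% interval for counting error only.

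Gap genes encode transcription factors that divide the syncytial embryo into broad regions, and pair-rule genes read them out as stripes that prefigure the segments. Most of these factors are used again after gastrulation, in neuroblasts and neurons, muscle founder cells, gut, amnioserosa or renal tubules. A collection that runs from egg laying to hatching can hold both uses, so each gene was described by the group of nuclei its UMIs came from and by the genes found beside it.

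The nuclei fell into 11 groups by genes other than the 10 patterning genes. A median nucleus held 2969 UMIs, and depth ran from 279 to 123309 UMIs. The named groups were somatic muscle-like (35 nuclei), midgut-like (32), salivary gland-like (7), an epidermis-like group led by the apical extension gene Osi9 (42), another with the cuticle gene Lcp65Ac (36), and neuron-like groups led by beat-Ia (21) and para (34). A group of 29 nuclei rich in apolpp, the lipoprotein precursor of fat body, carried 6 fat body markers but also 4 of ring gland. A group of 37 nuclei led by the egg gene dhd carried 5 germ cell markers. Neither of these was given a cell type name, a choice made after the values were seen. Clusters 4 (39 nuclei, led by Gat, CG34461 and LManVI) and 6 (6 nuclei) stayed unnamed. Median depth differed between groups, from 1230.5 UMIs in midgut-like nuclei to 6507.5 in cluster 6. The early and egg genes listed further on were also left out in forming the groups, but other early or maternal genes were not.

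The 10 genes together gave 1124 UMIs, and 220 of the 318 nuclei (69.2%) held at least 1 of them. UMIs came from 207 for hb, 197 for Kr, 27 for hkb and 17 for tll among the gap genes. Among the pair-rule genes there were 12 for eve, 35 for ftz, 91 for run, 388 for h, 52 for odd and 98 for opa. Of the 10 genes, 8 reached 20 UMIs, and tll and eve did not. A typical positive nucleus held a single UMI, except for h, whose median was 2. Positive nuclei were the deeper ones: the 84 nuclei with hb had a median of 8966 UMIs, against 2265 in those without it.

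**Figure D1:**
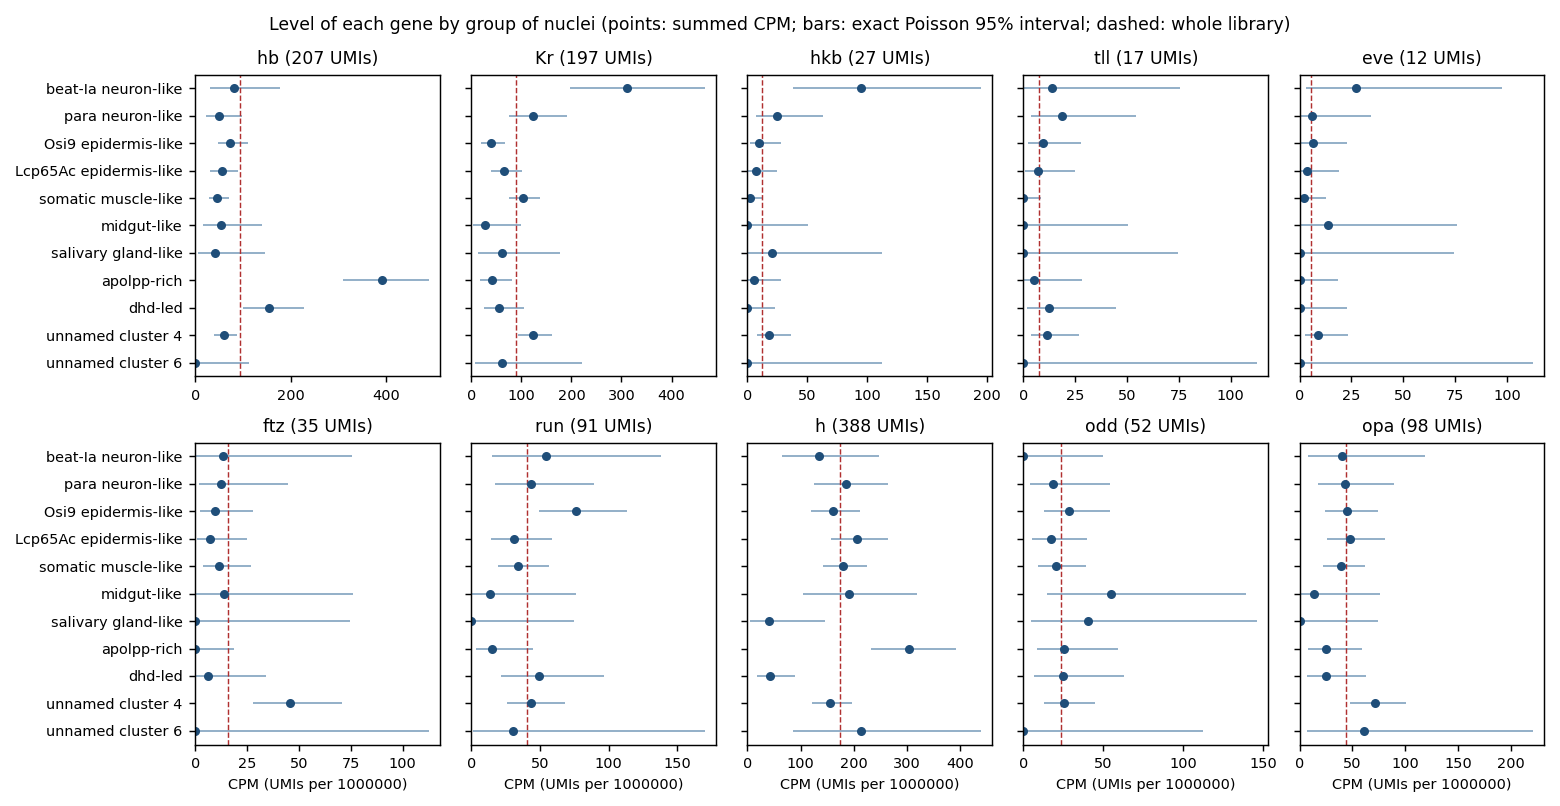
Level of each of the 10 genes in CPM (UMIs per 1000000 UMIs of the group, x axis) in the 11 groups of nuclei (y axis), with points for summed UMIs, bars for exact Poisson 95% intervals and a dashed line at the level of the whole library. The hb point of the apolpp-rich nuclei, at 391 CPM, and the Kr point of the beat-Ia neuron-like nuclei, at 311 CPM, lie apart from the next group, while most other bars overlap. Without the 2 nuclei that hold 16 of its 23 Kr UMIs the latter level is 116 CPM.

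hb, a zinc finger factor that patterns the anterior embryo and later opens the temporal series of neuroblasts, was highest in the apolpp-rich nuclei. They held 77 of its 207 UMIs, a level of 391 CPM (309 to 489). All other nuclei together had 63.8 CPM, a ratio of 6.13 (4.56 to 8.18). Of the 29 nuclei, 16 held hb (55.2%, exact binomial interval 35.7 to 73.6%), with 1 to 20 UMIs and a median of 4. The share was 22.9% in the somatic muscle-like nuclei, which are taken here as the reference for background, at median depths of 4644 and 4596 UMIs. Leaving out the nucleus with 20 hb UMIs left 344 CPM, and leaving out the next as well left a ratio of 4.99 (3.49 to 7.01). The ratio of the apolpp-rich group to the next, the dhd-led group, was 2.54 (1.60 to 4.17). After each nucleus was thinned to 1000 UMIs, 3 of 29 apolpp-rich nuclei and 7.05% of the others held hb, so the difference was not detectable at that depth.

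Inside the apolpp-rich group, the nuclei with and without hb both carried abundant apolpp. The 16 nuclei with hb had 35627 CPM of apolpp and the 13 without had 41609. srp, the GATA factor of fat body and blood, was at 557 and 221 CPM, and sisA, an X-chromosome counting gene that yolk nuclei also transcribe, at 238 and 40.2 CPM. UMIs of sisA were found in 10 of the nuclei with hb and in 2 of those without, at median depths of 5851 and 2945 UMIs. The part of depth in these differences was not tested. phm, a ring gland gene, was at 20.4 and 80.4 CPM and the hemocyte marker Hml at 13.6 and 0 CPM, on a few UMIs each.

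Outside that group hb was spread thinly. The dhd-led nuclei had 25 hb UMIs, 154 CPM (99.5 to 227) and a ratio of 1.75 (1.10 to 2.67). Of those UMIs, 14 came from 1 nucleus of 59253 UMIs, without which the ratio was 1.21 (0.594 to 2.22). With nuclei weighed the same it was 0.966. Levels were lower in somatic muscle-like nuclei, at 45.6 CPM and a ratio of 0.438 (0.261 to 0.696). The ratio was also below 1 in the Lcp65Ac epidermis-like nuclei (0.557, 0.312 to 0.928) and in cluster 4 (0.590, 0.375 to 0.893). All ratios in this paragraph are to all other nuclei, with the apolpp-rich ones and their 77 of 207 hb UMIs among them. At 54.8 and 59.4 CPM, the Lcp65Ac nuclei and cluster 4 were near the level of all nuclei outside the apolpp-rich group. The neuron-like nuclei as a class had 59.4 CPM, with 14 UMIs in 12 of 55 nuclei, a ratio of 0.615 (0.330 to 1.06).

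**Figure D2:**
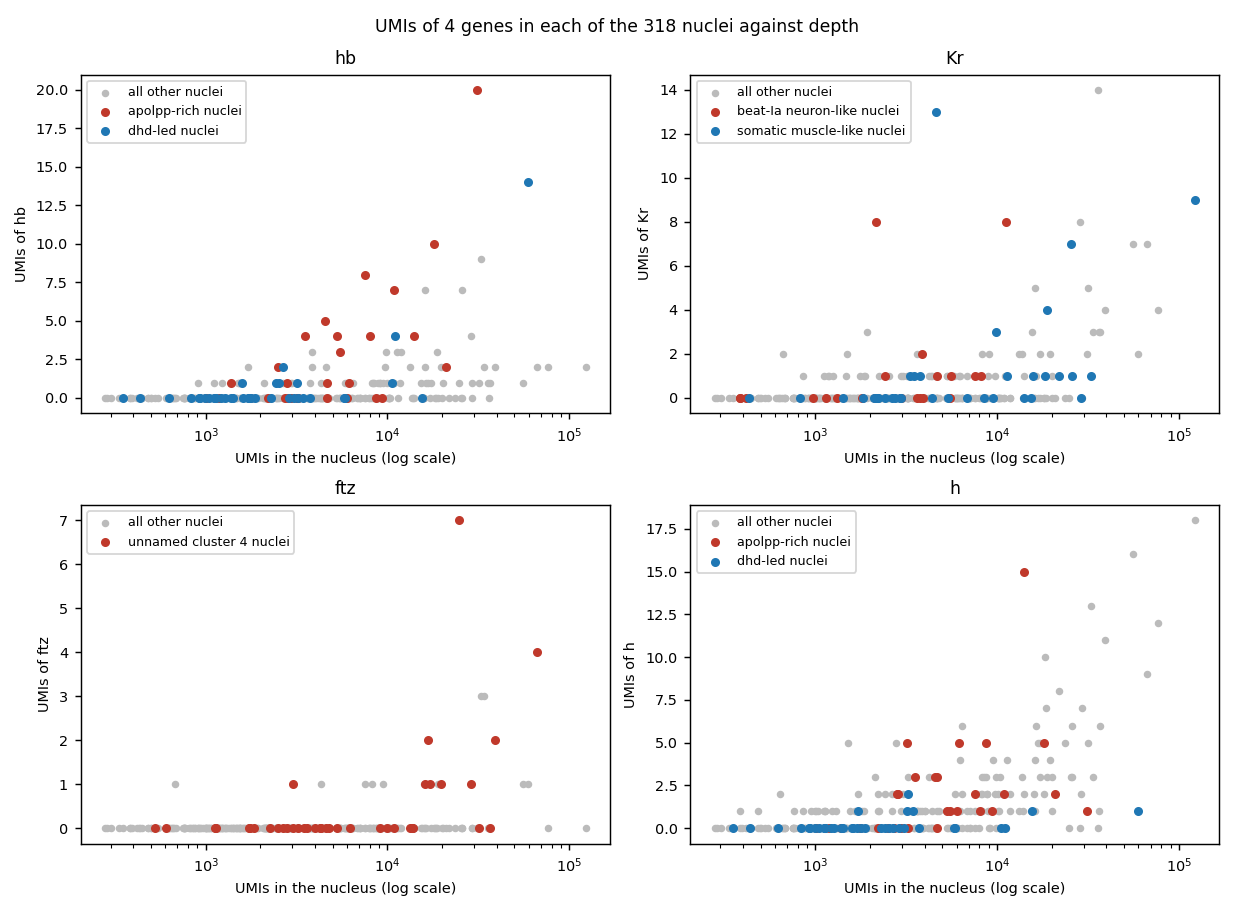
UMIs of hb, Kr, ftz and h (y axes) in each of the 318 nuclei against the UMIs of the nucleus (x axis, log scale), with named groups coloured and all other nuclei grey. Apolpp-rich nuclei carry up to 20 hb UMIs, with 20 in a nucleus of 31090 UMIs and 10 in one of 18086. The muscle-like nucleus with 13 Kr UMIs stands at 4596 UMIs.

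Kr, a zinc finger repressor of the central embryo that is also the second factor of the neuroblast series, was highest in the beat-Ia neuron-like nuclei. They held 23 UMIs in 8 of 21 nuclei, a level of 311 CPM (197 to 467) against 80.6 CPM elsewhere and a ratio of 3.86 (2.38 to 5.98). The para neuron-like nuclei had 20 UMIs, 124 CPM and a ratio of 1.45 (0.864 to 2.30). The beat-Ia group was 2.51 (1.32 to 4.82) times the para group. Of its UMIs, 16 lay in 2 nuclei of 2146 and 11262 UMIs, with 8 in each, and without both the level was 116 CPM and the ratio 1.43 (0.568 to 3.02). As a class, the 55 neuron-like nuclei had 43 Kr UMIs, 182 CPM (132 to 246) and a ratio of 2.37 (1.65 to 3.34). That ratio was 1.58 (1.01 to 2.38) without the same 2 nuclei and 1.41 (0.850 to 2.22) with another clustering seed. Kr was found in 30.9% of the class at a median depth of 1700 UMIs. Epidermis-like nuclei are the reference for background here, with a share of 15.4% at a median of 4358.5, since Kr is also used in muscle founder cells. After thinning the shares were 12.8% and 2.86%. In the somatic muscle-like nuclei the share was 40% at a median of 4596 UMIs. Their 45 UMIs gave 103 CPM and a ratio of 1.21 (0.849 to 1.70), or 0.871 (0.575 to 1.28) without 1 nucleus with 13.

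Most Kr UMIs, 154 of 197, came from outside the neuron-like class, in 65 of 263 nuclei (24.7%). Cluster 4 had 54 UMIs in 21 of 39 nuclei, 123 CPM and a ratio of 1.55 (1.11 to 2.13). It became 0.747 with another clustering seed and 1.41 (0.991 to 1.98) without its nucleus with most Kr. The Osi9 epidermis-like nuclei were low, at 38.1 CPM and a ratio of 0.395 (0.201 to 0.707), as were the apolpp-rich nuclei at 0.438 (0.186 to 0.881). The nucleus with the most Kr UMIs, 14 of 35787, sat in the Lcp65Ac epidermis-like group but carried 85 UMIs of the neuronal RNA-binding gene elav. Its elav level was 2375 CPM, against 705 CPM in the rest of the library, and it held 30 UMIs of CadN, 13 of onecut and 11 of nerfin-1, other neural genes. Without it the Kr level of its group was 19.5 CPM. Another nucleus, in the somatic muscle-like group, held 13 Kr UMIs among only 4596, a level of 2829 CPM (1506 to 4837). It carried 148 UMIs of muscle markers, 24 of them of the titin-like gene sls, and 10 of peb, a marker of amnioserosa that other tissues use too.

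hkb, the terminal gap gene that also specifies neuroblasts, had 11 of its 27 UMIs in neuron-like nuclei. The class level was 46.7 CPM (23.3 to 83.5) against 8.01 elsewhere, a ratio of 5.83 (2.45 to 13.4). The beat-Ia group held 7 of these in 3 of 21 nuclei, at 94.6 CPM and a ratio of 10.2 (3.65 to 25.2). Of these, 4 lay in 1 nucleus of 11262 UMIs, without which the beat-Ia level was 47.8 CPM and the ratio 5.17 (0.983 to 17.4). Without it the ratio of the class was 3.90 (1.36 to 10.0), and without the next nucleus as well 2.79 (0.801 to 7.98). In the class, 10.9% of nuclei held hkb, against 2.86% of the somatic muscle-like nuclei, where 1 UMI was found (ratio 0.157, 0.00384 to 0.958). After thinning, 2 neuron-like nuclei and 0 of the others held hkb.

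tll, an orphan nuclear receptor of the embryo's ends and later of the brain, gave too few UMIs for most groups. Of its 17 UMIs, 5 lay in 1 cluster 4 nucleus of 13841 UMIs, which also held 3 hkb UMIs, 21 of elav and 6 of otp, a gene of hindgut and brain. The neuron-like class had 4 UMIs in 3 of 55 nuclei, a ratio of 2.61 (0.620 to 8.44). The somatic muscle-like nuclei had 0 UMIs, which allows up to 6.84 CPM at 3 counts, against 9.47 CPM elsewhere.

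eve, the homeodomain factor of the odd-numbered parasegments that later marks particular motor neurons, interneurons and heart precursors, was found as a single UMI in each of 12 nuclei. Cluster 4 had 4 of these, and the neuron-like class had 3 in 55 nuclei, 12.7 CPM and a ratio of 2.83 (0.492 to 11.3). The share was 5.45% in the neuron-like class and 3.85% in the epidermis-like one, where 3 nuclei held eve. None of the 11 groups differed from the rest beyond counting error. Among nuclei placed one by one by their markers, a placement described further on, the 34 neuron-like ones held 3 eve UMIs, 25.9 CPM against 4.25 elsewhere and a ratio of 6.09 (1.06 to 24.4).
ftz, the homeodomain partner of the nuclear receptor Ftz-F1 in alternate parasegments, was concentrated in cluster 4, with 20 of 35 UMIs. Its level there was 45.7 CPM (27.9 to 70.6) against 8.35 elsewhere, a ratio of 5.47 (2.66 to 11.5). The UMIs lay in 9 of 39 nuclei (23.1%), with 7 in 1 nucleus of 24923 UMIs, without which the ratio was 3.77 (1.65 to 8.50). The share was 8.57% in somatic muscle-like nuclei of like depth (medians 4613 and 4596). Cluster 4 carried 2 midgut markers, too few for a name, and ftz was itself among its leading genes by fold although it was not used to form the cluster. The apolpp-rich nuclei had 0 ftz UMIs, which allows up to 15.2 CPM, close to the 17.2 CPM elsewhere. After thinning ftz was found in 1 nucleus of 270, in cluster 4.

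run, a Runt-domain factor of the pair-rule network that also acts in neurons, was highest in the Osi9 epidermis-like nuclei, with 24 UMIs in 8 of 42 nuclei. The level was 76.2 CPM (48.8 to 113) and the ratio 2.18 (1.31 to 3.53), or 1.63 (0.882 to 2.85) without the nucleus with most run. The Lcp65Ac epidermis-like nuclei had 0.404 (0.165 to 0.901) times that level. The Osi9 nucleus with the most run, 8 of 33883 UMIs, also held 59 UMIs of neuroblast markers. For the epidermis-like class as a whole the ratio of run was 1.53 (0.964 to 2.38), and it was 0.629 with nuclei weighed the same. The share of Osi9 nuclei with run, 19.0%, was close to the 17.1% of somatic muscle-like nuclei, at medians of 5967.5 and 4596 UMIs.

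h, a bHLH repressor of the Hairy/E(spl) family, was the only one of the 10 found in more than 100 nuclei and had UMIs in all 11 groups. The apolpp-rich nuclei had the highest level, 305 CPM (233 to 392.3) in 19 of 29 nuclei, a ratio of 1.89 (1.41 to 2.50), or 1.53 (1.09 to 2.09) without 1 nucleus with 15 UMIs. The dhd-led nuclei were low, with 7 UMIs in 6 of 37 nuclei, 43.0 CPM (17.3 to 88.7) and a ratio of 0.234 (0.0934 to 0.487). The salivary gland-like nuclei had 2 UMIs and a ratio of 0.229 (0.0276 to 0.833). From the apolpp-rich down to the beat-Ia neuron-like nuclei, no groups next to each other in the order differed beyond counting error. No type in this library was known to lack h, and 48.6% of somatic muscle-like nuclei held it, against 65.5% of apolpp-rich and 16.2% of dhd-led nuclei, whose median depths were 4596, 4644 and 1726 UMIs. After thinning the shares were 9.09%, 24.1% and 6.67%. The Lcp65Ac epidermis-like nuclei then had a higher share, 30%, and cluster 4 had 21.6%.

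odd, a zinc finger repressor that also marks parts of the gut and the nephrocytes, differed beyond counting error in none of the 11 groups. The midgut-like nuclei had 4 UMIs and a ratio of 2.46 (0.643 to 6.71), 3 of the UMIs in 1 nucleus of 1474. The beat-Ia neuron-like nuclei had 0 UMIs, which allows up to 40.6 CPM, above the 24.1 CPM elsewhere. opa, a Zic-type zinc finger factor that is later needed in the visceral mesoderm of the midgut, had 31 of 98 UMIs in cluster 4. Its level there was 70.9 CPM (48.1 to 101) against 37.3 elsewhere, a ratio of 1.90 (1.20 to 2.95), in 15 of 39 nuclei (38.5%). The share was 20% in somatic muscle-like nuclei.

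The groups were put in order of level for each gene. For hkb, tll, eve, ftz, run, odd and opa, all 10 pairs of neighbouring groups had a ratio whose interval held 1. For hb and Kr the exception was the first against the second group, which for Kr rests on the 2 beat-Ia nuclei given above, and for h it was the beat-Ia neuron-like nuclei against the dhd-led ones (3.14, 1.08 to 9.72).

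Counting genes past 2-fold on CPM + 10, among 7983 genes with at least 20 UMIs, sets the 8 measured patterning genes beside all others. In the apolpp-rich nuclei 1 of 8 was higher, hb, against 7.52% of all genes, and 3 were lower (Kr, ftz and run) against 24%. In the beat-Ia neuron-like nuclei Kr and hkb were higher against 7.22% of genes and odd was lower against 21.9%. In the neuron-like class the same 2 were higher against 8.28% and 0 were lower against 9.45%. In cluster 4 ftz was higher against 1.32% of genes and none was lower against 3.58%. The midgut-like nuclei had odd higher against 7.8% and Kr, hkb, run and opa lower against 28.4%.

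The dhd-led nuclei had 0 of 8 higher, against 10.5% of genes, and hkb and h lower against 16.6%. In the somatic muscle-like nuclei hb was lower against 7.58% and none was higher against 4.28%. The apolpp-rich nuclei, where hb was highest, were among the nuclei they were compared with. In the Osi9 epidermis-like nuclei Kr was lower against 7.8% and none was higher against 2.39%. The epidermis-like class as a whole had none past 2-fold, against 3.31% of genes higher and 5.46% lower. In the salivary gland-like nuclei 5 were lower against 45.4% and none was higher against 5.12%. In cluster 6, 4 were lower against 36.3% and none was higher against 9.45%, and both of these groups held few UMIs. The para neuron-like and Lcp65Ac epidermis-like groups had none past 2-fold in either direction, against 8.84% and 3.6% of genes higher and 13.6% and 8.66% lower. With so few genes, these counts lie near the background in most groups.

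Nuclei were also placed one by one, by whichever marker list stood highest in them. Such placements are cut from a score and are not types, and 68 nuclei were left unplaced. The 28 fat body-like nuclei had 400 CPM of hb, a ratio of 6.05 (4.48 to 8.13). Neuron-like nuclei (34) had 207 CPM of Kr, a ratio of 2.54 (1.58 to 3.90), and 69.1 CPM of hkb, a ratio of 7.70 (2.92 to 18.4). Neuroblast-like nuclei (18) had 225 CPM of Kr, a ratio of 2.73 (1.63 to 4.35), and 124 CPM of run, a ratio of 3.32 (1.60 to 6.27). Of these 11 run UMIs, 8 lay in 1 nucleus of 33883 UMIs from the Osi9 epidermis-like group. That nucleus also held 327 UMIs of epidermis markers. hb was at 124 CPM in the neuroblast-like nuclei, a ratio of 1.36 (0.666 to 2.48). The 12 amnioserosa-like nuclei had 16 Kr UMIs in 4 nuclei, a ratio of 7.27 (4.07 to 12.1), of which 13 were in the muscle-like nucleus described above. They also had 4 run UMIs, a ratio of 3.78 (1.01 to 10.0).

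The same placement set other genes apart as well, on few nuclei each. The 15 trachea-like nuclei had 9 ftz UMIs in 2 nuclei, 66.5 CPM against 12.4 elsewhere and a ratio of 5.37 (2.21 to 11.8). The 4 hindgut and Malpighian tubule-like nuclei had 6 tll UMIs in 2 nuclei, 42.2 CPM against 5.26 and a ratio of 8.03 (2.44 to 23.7). Each of these values came mostly from 1 nucleus of cluster 4. One of 24923 UMIs held 7 of the 9 ftz UMIs, and one of 13841 UMIs held 5 of the 6 tll UMIs. odd was found in 7 of the 21 epidermis-like nuclei with 9 UMIs, 59.3 CPM and a ratio of 2.87 (1.23 to 5.98). opa had 12 UMIs in 4 of the 13 hemocyte-like nuclei, 116 CPM and a ratio of 2.87 (1.43 to 5.28), and 0 UMIs in the neuroblast-like ones. Of those 12, 7 lay in 1 somatic muscle-like nucleus of 32734 UMIs, which held 770 UMIs of muscle markers. Kr had 16 UMIs in 3 of the 6 nephrocyte-like nuclei, a ratio of 2.06 (1.16 to 3.45). Of these, 8 lay in 1 cluster 4 nucleus of 28740 UMIs that was called a doublet. It held 252 UMIs of neuron markers and 13 of nephrocyte markers. h was at 292 CPM in the 13 sensory organ-like nuclei, a ratio of 1.74 (1.14 to 2.55). Of these 28 h UMIs, 15 lay in 1 nucleus of 14036 UMIs from the apolpp-rich group. Lower levels past counting error included hb in midgut-like (0.373, 0.148 to 0.783) and somatic muscle-like nuclei (0.236, 0.0937 to 0.495). For these 2 ratios the fat body-like nuclei, with 71 hb UMIs, were among the other nuclei. Lower too were run in the somatic muscle-like nuclei (0.152, 0.0181 to 0.564) and Kr in epidermis-like nuclei (0.357, 0.115 to 0.849).

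Several of the 10 genes were often met in 1 nucleus, and the number followed depth. Nuclei with UMIs of at least 3 of the genes numbered 72 (22.6%), and the fullest held 9. With the nuclei split into 3 equal groups from shallow to deep, the median number found was 0, 1 and 3, while the summed level was 594, 569 and 485 CPM. All 45 pairs of genes were seen together at least once, and gap and pair-rule genes shared 101 nuclei, out of 142 with a gap gene and 179 with a pair-rule gene. After thinning to 1000 UMIs, 2 of 270 nuclei (0.741%) held 3 genes and 10 of the 45 pairs were seen. The most frequent pair, hb and h, met in 55 nuclei, which were 65.5% of those with hb and 40.1% of those with h, and in 4 after thinning.

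The 3 nuclei with the most patterning UMIs were all deep. A para neuron-like nucleus of 55846 UMIs held 39 UMIs of 9 genes, 16 of them of h and 7 of Kr. A muscle-like nucleus of 32734 UMIs held 38 UMIs of 7 genes, with 13 of h, 9 of hb and 7 of opa. The deepest nucleus of the library, with 123309 UMIs and 4163 of muscle markers, held 37 UMIs of 6 genes.

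**Figure D3:**
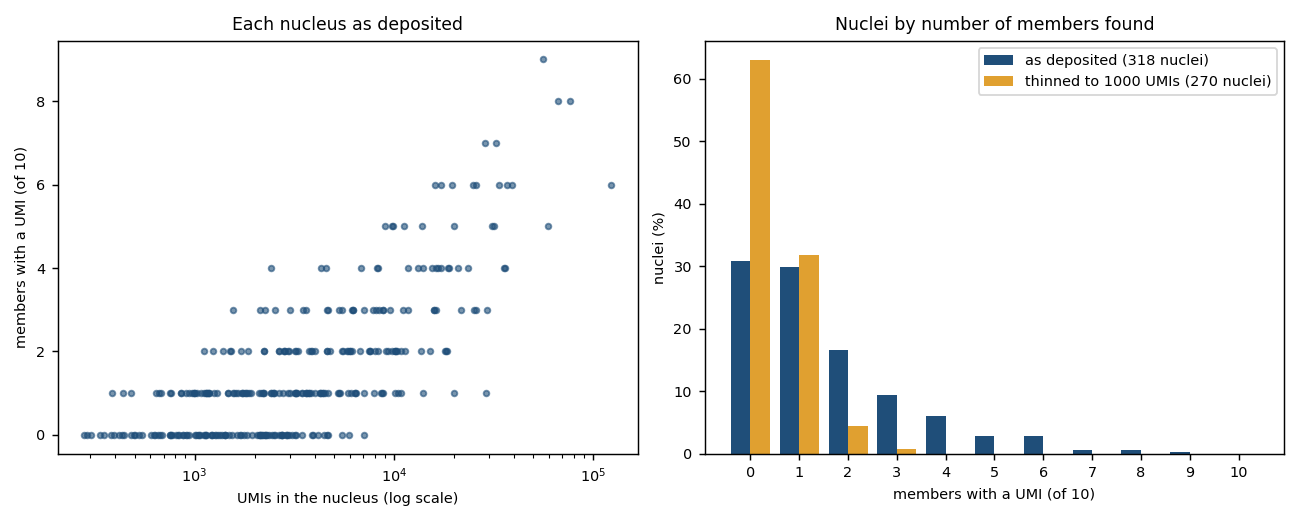
Left, the number of the 10 genes with a UMI in each nucleus (y axis) against its UMIs (x axis, log scale). Right, the percentage of nuclei (y axis) by that number, as deposited (318 nuclei) and thinned to 1000 UMIs (270 nuclei), where nuclei with 3 or more of the genes go from 22.6% to 0.741%.

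Early patterning was looked for through genes that are switched on at cellularisation, when gap and pair-rule stripes form. The list held nullo, Sry-alpha, bnk, slam, halo, term, zen, Z600 and tsg. A 10th gene of it, sisA, was left out because yolk nuclei also transcribe it, and values with it are given beside. Together they had 287 UMIs in 114 nuclei, 128 CPM, and Sry-alpha had 0 UMIs. With sisA there were 365 UMIs, 163 CPM. By group the level was 341 CPM (221 to 503) in midgut-like nuclei, 197 in Osi9 epidermis-like nuclei, 174 in cluster 4 and 172 in dhd-led nuclei. In the midgut-like nuclei 11 of 25 early UMIs lay in 1 nucleus of 1555 UMIs, without which the level was 195 CPM (107 to 327). Without 1 nucleus each it was 152, 148 and 106 CPM in the Osi9, cluster 4 and dhd-led nuclei. It was 86.3 CPM (50.3 to 138) in the apolpp-rich nuclei, where hb was highest, and 27.0 CPM (3.27 to 97.7) in the beat-Ia neuron-like nuclei, where Kr and hkb were highest. The interval of the apolpp-rich nuclei held the library level. Without 1 nucleus of 31090 UMIs their level was 66.3 CPM (33.1 to 119), below it. With sisA, which had 37 UMIs there, they had 54 early UMIs, 274 CPM (206 to 358) against 153 elsewhere, above the library level. Without the 2 nuclei that held 25 of these 54 UMIs it was 183 CPM (123 to 263), an interval that held the library level. On which side of that level this group lay turned with sisA and with 1 or 2 nuclei. The beat-Ia neuron-like nuclei had 0 sisA UMIs.

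**Figure D4:**
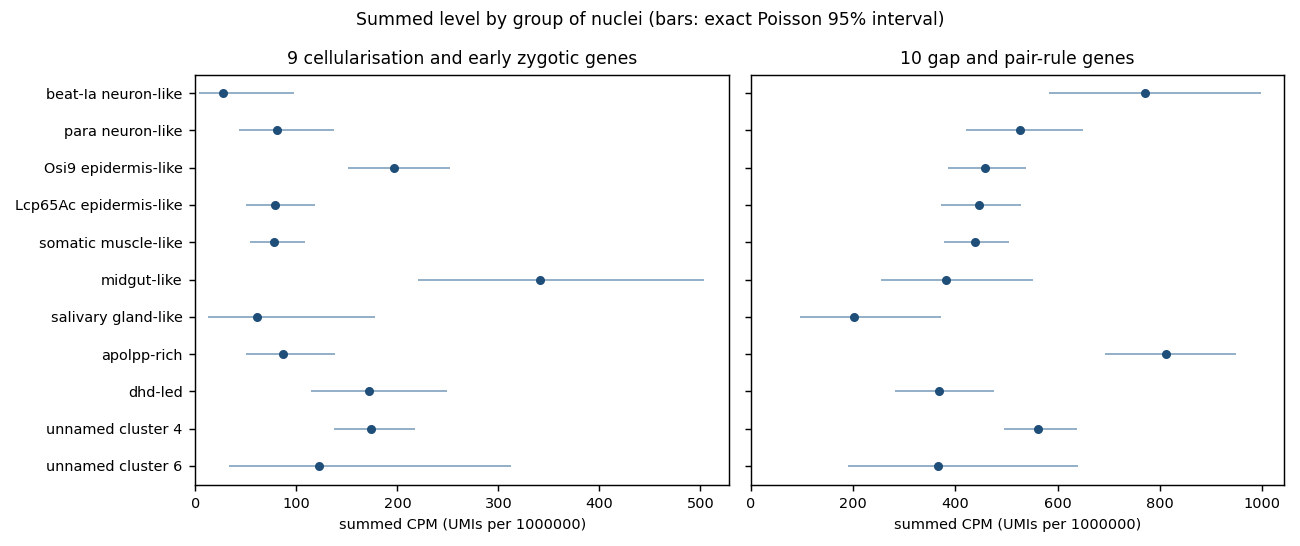
Summed level in CPM (x axes) of 9 cellularisation and early zygotic genes (left) and of the 10 gap and pair-rule genes (right) in the 11 groups of nuclei (y axis), with exact Poisson 95% intervals. Early genes, without sisA, are highest in the midgut-like nuclei at 341 CPM, or 195 CPM without 1 nucleus, and the patterning genes in the apolpp-rich nuclei at 813 CPM.

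Across nuclei, the early genes were met in 45.0% of the 220 nuclei with a patterning gene and in 15.3% of the 98 without. After thinning the shares were 11 of 100 (11%) and 16 of 170 (9.41%). By level, the early genes were at 127 CPM in nuclei with a patterning gene and 143 CPM in those without, a ratio of 0.887 (0.588 to 1.40). For single genes the ratio was 2.19 (1.56 to 3.0) with eve, 1.23 (0.963 to 1.57) with hb, 0.956 (0.753 to 1.22) with Kr and 1.07 (0.800 to 1.42) with ftz. It was 0.659 (0.513 to 0.850) with h, 0.765 (0.587 to 0.991) with odd and 0.559 (0.321 to 0.911) with tll. The ratio of eve rests on 47 early UMIs in 12 nuclei, 33 of them in 2 nuclei of 25831 and 24923 UMIs, and without both it was 0.900 (0.485 to 1.54). With sisA in the list the ratio was 1.34 (1.08 to 1.67) for hb, 1.81 (1.32 to 2.44) for eve, 0.770 (0.613 to 0.971) for h and 0.737 (0.482 to 1.08) for tll.

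Maternal and egg genes, which the oocyte loads, gave 2425 UMIs, of which 981 lay in the 37 dhd-led nuclei. Their level was higher in nuclei with ftz (ratio 3.65, 3.36 to 3.95), hb (2.18, 1.99 to 2.39), run (1.99, 1.84 to 2.16) and Kr (1.68, 1.54 to 1.83). It was lower in nuclei with tll (0.358, 0.288 to 0.440), hkb (0.412, 0.355 to 0.477), odd (0.568, 0.516 to 0.624) and opa (0.600, 0.549 to 0.655). hb itself is also a maternal transcript. The dhd-led nucleus of 59253 UMIs held 757 of the egg UMIs beside 14 of hb, 4 of run, 2 of Kr and 1 each of ftz and h. Without the dhd-led nuclei the ratio was 1.80 (1.60 to 2.01) for ftz, 1.17 (1.05 to 1.30) for hb, 1.20 (1.08 to 1.33) for run and 1.01 (0.914 to 1.13) for Kr. On the low side it was then 0.616 (0.494 to 0.760) for tll and 0.672 (0.575 to 0.781) for hkb, while the intervals of odd (1.10, 0.989 to 1.22) and opa (1.08, 0.969 to 1.20) held 1. For eve it was 1.17 (1.02 to 1.34) with the dhd-led nuclei and 1.95 (1.68 to 2.24) without them, with 120 of its 230 egg UMIs in 1 nucleus.

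UMIs of at least 4 early genes were held by 9 nuclei, a number chosen after the values were seen. Their patterning genes had 126 UMIs, 474 CPM against 507 CPM elsewhere, a ratio of 0.934 (0.770 to 1.13). Only ftz among the 10 differed beyond counting error in them, with 9 UMIs and a ratio of 2.56 (1.06 to 5.64), of which 7 UMIs were in 1 nucleus. The nucleus with the most early UMIs, 18 of 25831, lay in the Osi9 epidermis-like group and held 7 UMIs of hb, 6 of h, 5 of run and 1 of eve. It also carried 168 UMIs of epidermis markers.

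Other axis genes gave further values by group. Of 8 measured gap and maternal axis genes, none passed 2-fold in the neuron-like class, and their median log2 difference was 0.12 against −0.08 for all genes. The dhd-led nuclei had cad and bcd higher, the maternal posterior and anterior determinants, at 129 and 92.2 CPM and ratios of 2.65 (1.57 to 4.27) and 2.81 (1.49 to 4.96). They had gt and kni at least 2-fold lower. That made 2 of 8 higher, against 10.5% of all genes, and 2 lower, against 16.6%. All 9 measured egg genes were higher there too, with a median log2 difference of 2.66 against 0.08 for all genes. The group was picked out by genes of this same egg list among its leading genes. Their higher level was therefore set in part by that choice and is not separate evidence. In the apolpp-rich nuclei ftz-f1 and Ppa, 2 of 8 other pair-rule genes, were higher, against 7.52% of all genes. The level of ftz-f1 was 1331 CPM, a ratio of 2.38 (2.07 to 2.73). Another 2, slp2 and D, were lower, against 24% of all genes. In cluster 4 none of these 8 was past 2-fold, against 1.32% of genes higher and 3.58% lower, although ftz was.

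Other genes of the neuroblast series were set beside hb and Kr. In the apolpp-rich nuclei 4 of 5 of them (nub, pdm2, grh and svp) were at least 2-fold lower, against 24% of all genes. svp was at 0 UMIs, which allows up to 15.2 CPM, against 73.2 elsewhere. In the neuron-like class 1 of the 5, cas, a later factor of the series, was higher, against 8.28% of all genes. Its level was 176 CPM in the beat-Ia group, a ratio of 3.79 (1.95 to 6.79), and 136 CPM in the para group, a ratio of 3.10 (1.85 to 4.98). Of 6 measured motor neuron and interneuron identity genes, 4 were higher in the neuron-like class, exex, Lim3, HGTX and dac, against the same 8.28%. The median log2 difference of the 6 was 1.22 against −0.08 for all genes.

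The genes whose UMIs followed each patterning gene most closely were taken over the 270 nuclei with at least 1000 UMIs, among 5729 genes, where all points share a library and a range of depths. For hb they were alpha-Est7 (Pearson r 0.45), CG12896 (0.44) and CG33099 (0.43), all 3 highest in the apolpp-rich nuclei. For h they were cbt (0.37), the dopa decarboxylase Ddc (0.32) and Drat (0.31), and cbt and Drat were also highest in the apolpp-rich nuclei. For opa they were Hand (0.33), a bHLH gene of heart and visceral mesoderm, and meso18E (0.31), both highest in the somatic muscle-like nuclei. Those for hkb were Hexim (0.37), CG8407 (0.36) and CG44422 (0.34), all highest in the para neuron-like nuclei. The others were dan (0.33) and 1 other gene (0.30) for ftz, mfrn and Ahcy (both 0.31) for run, and cni (0.30) for odd. None reached 0.3 for Kr.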

How the data were processed

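The table held whole-number UMI counts per gene and nucleus, deposited by the authors and not normalized. That they are UMIs follows from the 10x Genomics platform in the labels. Build dm3 is named per the submitters' processing notes. Not given in the sources used here were the aligner, counter, use of strand and barcode filters. The library of accessibility and contacts was not analysed here, and no coordinates or sequences were taken from the reference gene table, which is of another release.

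No nucleus fell below 200 genes, so all 318 were kept, with 0 repeated names. They were scaled to 10000 UMIs, log-transformed and clustered with scanpy 1.11.5 and igraph 0.11.9 (2000 variable genes, 20 components, 10 neighbours, Leiden resolution 1, seed 0), leaving out the 10 genes and the 6 comparison lists of 53 genes. Groups were named from 19 marker lists by the list with most markers over 2-fold higher with at least 5 UMIs, at least 3 being needed. Of 217 marker entries and the lists, 6 symbols were not exact, 4 of which were found as synonyms. The naming thresholds and the names withheld were set after the values were seen. The members and lists were chosen with earlier results of these data known. Scrublet called 7 nuclei doublets, which were kept and left out as an alternative.

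Levels are CPM of summed UMIs. Intervals are exact Poisson (CPM), Clopper-Pearson (shares) and conditional binomial (ratios), at 95%. A group with 0 UMIs was given the limit of 3 counts. Thinning drew 1000 UMIs from each of 270 nuclei and left out 48. Named genes were all 10 genes, those of the lists with at least 20 UMIs, and up to 3 genes for each of the 8 with the highest correlation of at least 0.3, among genes with at least 50 UMIs in 10 nuclei. Deep nuclei other than the 3 with most UMIs of the 10 genes, and the markers printed for them, were chosen after their values were seen. The ratios and their intervals were also tested on simulated counts with known folds. Thinning was checked to return 1000 UMIs per nucleus. The other steps were not run on simulated counts. Versions were pandas 2.3.3, matplotlib 3.10.9, scipy 1.17.1, numpy 2.4.6 and Python 3.11.15. Values without the 1 or 2 nuclei with most UMIs, without dhd-led nuclei or with sisA in the early list were alternatives chosen after seeing the data. Alternatives are given in the closing section.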

Additional observations from a re-analysis of the deposited data

How the results depend on the processing

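No paired analysis was possible because there is 1 RNA library and no groups that share replicates. Sums of UMIs weigh deep nuclei heavily. Under the alternatives the hb ratio of apolpp-rich nuclei stayed above 1, at 1.39 after thinning to 1000 UMIs (0.261 to 4.74) and 4.49 with nuclei of at least 1000 UMIs weighed the same, an alternative chosen after seeing the data. The Kr ratio of neuron-like nuclei was 1.41 with seed 1, 1.58 without the 2 nuclei with most Kr (chosen after seeing the data), 5.13 after thinning, 3.97 with all nuclei weighed the same and 3.54 with those of at least 1000 UMIs. The hkb ratio there was 15.4 with nuclei weighed the same, and the ftz ratio of cluster 4 was 2.63 with 1000 variable genes. After thinning neither of these last ratios could be computed, since no UMIs were left elsewhere. Of values past counting error, Kr in cluster 4 turned in direction with seed 1 (0.747), and hb in dhd-led nuclei did with nuclei weighed the same (0.966) and without the 2 nuclei with most hb (0.862). Of values whose interval held 1, run in epidermis-like nuclei (1.53) fell to 0.629 with nuclei weighed the same, Kr in somatic muscle-like nuclei (1.21) to 0.552 after thinning and h in epidermis-like nuclei (1.07) to 0.905 by own markers. The causes were not tested. Over the classes other than the unnamed clusters, 4 pairs of gene and class were at least 2-fold higher, against 1 with seed 1, 7 with nuclei weighed the same and 1 on CPM + 50. There were 15 at least 2-fold lower, against 9 at resolution 0.5, 9 at resolution 1.5, 23 after thinning and 2 on CPM + 50. These totals are over the 8 measured genes in each class. Of all genes, 3.31% to 10.5% were at least 2-fold higher in these classes and 5.46% to 45.4% lower. The totals are therefore not read as a result about the 8 genes. Nuclei with 3 of the genes (22.6%) were 0.741% after thinning, and the share of nuclei with a patterning gene that held an early gene (45.0%) was 11%. The apolpp-rich group was not found at resolution 1.5, nor the dhd-led group at resolution 0.5, with 15 neighbours or with 1000 variable genes. The beat-Ia group could not be followed under these last 3 settings, nor cluster 4 under the first 2 of them. Of the other alternatives, 73 of the main values and 101 of the rest moved by less than their interval or 1.5 times.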
